A study of Mus musculus with 6 samples.

Results

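The genes described here were 10 macrophage state genes, namely Lyz2, Cd68, Csf1r, Adgre1, Mrc1, Cd163, Msr1, Trem2, Arg1, and Chil3, found by gene symbol among the 27546 genes of the deposited expression table. All 10 were present, and all 10 were among the 14657 genes that passed a filter on low values and were tested. The RNA-Seq libraries came from the distal colon, 1 per mouse, of 3 Gm31629-/- mice and of 3 WT littermates on the C57BL/6 background (C57BL/6J in the methods). Gm31629 is a long noncoding RNA gene on chromosome 1, and the knockout targeted its sequence in the whole animal rather than in macrophages alone. All mice of both groups were 8 weeks old, drank 3% DSS (dextran sulfate sodium, which injures the colonic epithelium and so causes colitis) for 7 days, and were sacrificed on day 8. There were no untreated mice, so each value below compares genotypes in injured tissue.

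Macrophages are phagocytes that live in the lamina propria and the muscle layer of the colon, where they take up bacteria and dying cells. They are replenished from blood monocytes, which enter in larger numbers during colitis, and they depend on signals through the receptor encoded by Csf1r. The 10 genes cover different aspects of these cells. Lyz2, Cd68, Csf1r, and Adgre1 are used as common macrophage genes, although neutrophils also express Lyz2. Mrc1, Cd163, and Msr1 encode endocytic and scavenger receptors associated with tissue-resident macrophages. Trem2 encodes a lipid-sensing receptor, and Arg1 and Chil3 are the mouse genes most often used to mark alternative activation by IL-4 and IL-13.

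Values are FPKM, fragment counts scaled by gene length and by the number of mapped fragments, which the authors computed before deposit. By the size of 1 fragment in the low values, the libraries were divided by 18005400 to 18795400 fragments, so depth was nearly equal in the 6 mice. Genes above 0 numbered 22456 to 23600 in Gm31629-/- libraries and 19938 to 20118 in WT libraries. The expression of Gm31629 was not analysed here, so the genotype labels were not checked against their own gene. The Y-linked genes Ddx3y, Eif2s3y, Kdm5d, and Uty were above 0 only in Gm31629-/- mouse 1, in which Xist was 0.006 FPKM against 8.35 to 13.8 FPKM in the other 5 mice. The methods of the study state male mice, so in these sex-linked transcripts 5 of the 6 libraries went against the stated sex, and the remaining one stood apart from its own group. The labels give no sex, and results are also given without Gm31629-/- mouse 1.

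Expression of 8 of the 10 genes was higher in Gm31629-/- mice than in WT mice, and none was called lower. A gene was called when limma gave a Benjamini-Hochberg adjusted p under 0.05 over all tested genes and the difference in log2(FPKM + 1) exceeded 1 in either direction. The 8 were Lyz2, Cd68, Csf1r, Adgre1, Mrc1, Cd163, Msr1, and Chil3. Trem2 fell just short of the fold threshold, and Arg1 alone had a negative log2 fold change, which did not pass. In this comparison 18.4% of all tested genes were called higher and 4.64% were called lower. The median log2 fold change was 2.27 over the 10 genes and 0.15 over all tested genes. For 9 of the 10 genes every Gm31629-/- mouse was above every WT mouse, whereas 36.3% of all tested genes were apart in this direction and 21.5% in the other. With an unadjusted p under 0.05 in place of the adjusted p, Arg1 was called lower, and limma's voom on fragments recovered from FPKM called none lower.

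In whole tissue, more macrophages, more RNA of these genes per macrophage, and a different share of tissue layers in the sample cannot be told apart. FPKM is also relative to all other transcripts of a library. Rescaling each library by its median ratio moved the median of all tested genes from 0.15 to −0.05 and the share of called genes that were higher from 79.9% to 64.7%. Scaling to 15 epithelium markers moved these to 0.62 and 94.9%. The sign of the log2 fold change of each of the 10 genes stayed as it was under both scalings. Scaling to epithelium markers raised the log2 fold change of each of the 10, so it could hardly end a call of higher. The 8 genes stayed called under both scalings. They also stayed called in 6 of 6 fits that each left out 1 mouse, including the fit without Gm31629-/- mouse 1, which called 9 with Trem2 added and put the 8 between 1.16 for Cd163 and 4.04 for Lyz2. The WT mean of Adgre1, Mrc1, Cd163, Msr1, Trem2, and Chil3 was under the filter of 0.5 FPKM, so these 6 genes entered the test only through their level in Gm31629-/- mice. For any single gene, 3 mice against 3 cannot reach an exact permutation p below 0.1.

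**Figure D1:**
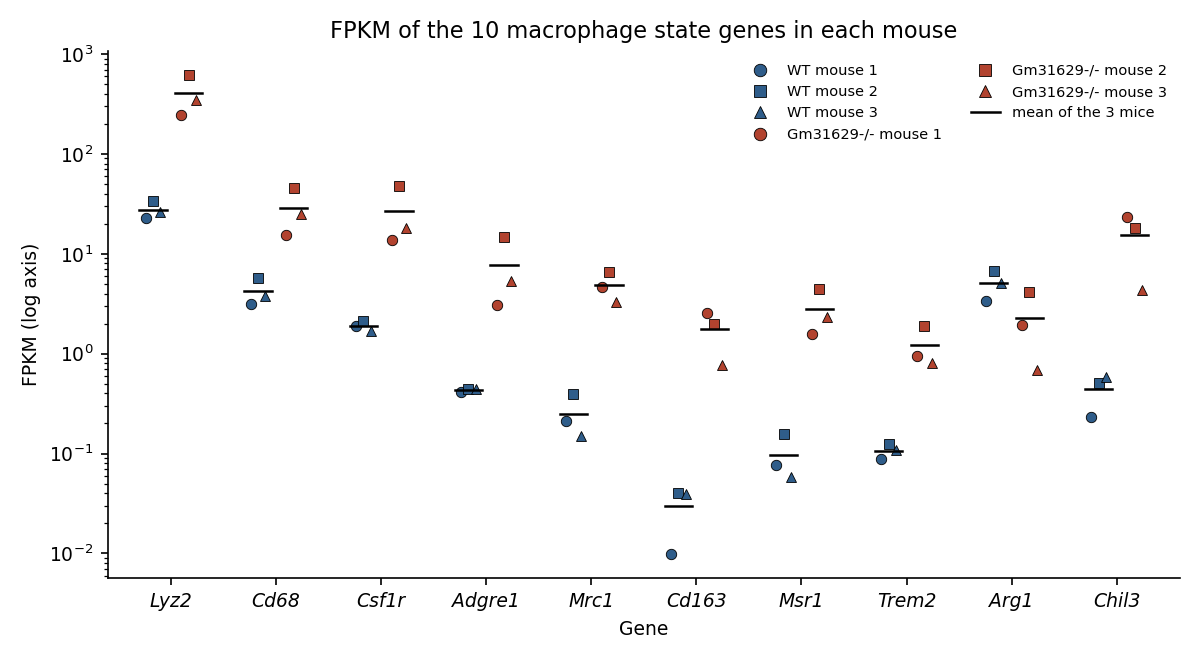
FPKM (log axis) of each of the 10 genes in each mouse, where blue symbols are WT mice, red symbols are Gm31629-/- mice, the symbol shape gives the mouse number, and the bar is the mean of the 3 mice. The red symbols lie above the blue ones for 9 genes, and for Arg1 the groups overlap, with Gm31629-/- mouse 2 at 4.16 FPKM inside the WT range of 3.40 to 6.73 FPKM.

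Lyz2 (ENSMUSG00000069516, chromosome 10, 117277331 to 117282321 of GRCm38) encodes lysozyme M, an enzyme that cleaves bacterial cell walls. Its FPKM was 243, 621, and 347 in Gm31629-/- mice 1 to 3 and 22.9, 33.8, and 26.3 in WT mice 1 to 3. The groups were far apart, with means of 403.6 ± 195.2 and 27.7 ± 5.59 FPKM (SD, n = 3 each). The log2 fold change was 3.73 ± 0.34 (SE), with a limma adjusted p of 0.000456, the largest of the 10 genes on this scale. Its neighbor Lyz1 contains 15.4% of the 50-base stretches of Lyz2, so some reads of the pair could have been split between them, although Lyz1 was far lower at 6.28 ± 3.01 and 0.343 ± 0.0823 FPKM (SD, n = 3 each).

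Cd68 (ENSMUSG00000018774, chromosome 11, 69664213 to 69666153) encodes a glycoprotein of lysosomes and endosomes. It had 15.4, 45.9, and 25.1 FPKM in Gm31629-/- mice and 3.14, 5.74, and 3.81 FPKM in WT mice. The groups did not overlap, and the log2 fold change was 2.41 ± 0.38 (SE), with a limma adjusted p of 0.00306.

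Csf1r (ENSMUSG00000024621, chromosome 18, 61100598 to 61132149), which encodes the receptor for the growth factors CSF1 and IL-34, had 13.6, 48.1, and 18.0 FPKM in Gm31629-/- mice and 1.90, 2.14, and 1.67 FPKM in WT mice. WT mice were close to one another, whereas Gm31629-/- mouse 2 was 3.54 times Gm31629-/- mouse 1. The log2 fold change was 3.04 ± 0.42 (SE), with a limma adjusted p of 0.0018. Csf1r overlaps Hmgxb3, which holds 14.27% of its 50-base stretches, so reads there are uncertain. Adgre1 (ENSMUSG00000004730, chromosome 17, 57358691 to 57483527) encodes the surface protein F4/80, the classic antigen of mouse macrophages. Its FPKM was 3.06, 14.6, and 5.30 in Gm31629-/- mice against 0.416, 0.445, and 0.443 in WT mice. Again, WT mice hardly differed and Gm31629-/- mice spanned 4.77-fold, and the log2 fold change was 2.36 ± 0.45 (SE), with a limma adjusted p of 0.00608.

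Among the scavenger receptors, Mrc1 (ENSMUSG00000026712, chromosome 2, 14229392 to 14332057) encodes the mannose receptor CD206. It had 4.63, 6.57, and 3.28 FPKM in Gm31629-/- mice and 0.212, 0.392, and 0.150 FPKM in WT mice, and its rise had the second smallest standard error of the 10 genes (2.18 ± 0.23 on the log2 scale, SE, with a limma adjusted p of 0.00075). Cd163 (ENSMUSG00000008845, chromosome 6, 124304656 to 124330527), which encodes the receptor for hemoglobin bound to haptoglobin, had 2.53, 1.99, and 0.768 FPKM in Gm31629-/- mice. In WT mice it was near 0, at 0.0099, 0.0407, and 0.0390 FPKM, which correspond to 1, 4, and 4 fragments. The log2 fold change was 1.37 ± 0.26 (SE), with a limma adjusted p of 0.00625, and at so few WT fragments the size of the rise is not precise. Msr1 (ENSMUSG00000025044, chromosome 8, 39581685 to 39642673) encodes the class A scavenger receptor. Its FPKM was 1.58, 4.48, and 2.32 in Gm31629-/- mice and 0.0767, 0.158, and 0.0587 in WT mice, and the log2 fold change was 1.72 ± 0.28 (SE), with a limma adjusted p of 0.00321. Thus, all 3 receptors were called higher, each from a WT level of at most 0.392 FPKM.

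Trem2 (ENSMUSG00000023992, chromosome 17, 48346401 to 48354147) encodes a receptor for lipids and lipoproteins that signals through the adaptor Tyrobp. It had the lowest geometric mean of the 10 genes in Gm31629-/- mice, with 0.956, 1.91, and 0.814 FPKM, and was 0.0874, 0.124, and 0.108 FPKM in WT mice. The groups were apart, by a ratio of means of 11.5. The log2 fold change was 0.98 ± 0.21 (SE), with a limma adjusted p of 0.00902, so that Trem2 passed the p but not the fold threshold. It was called without Gm31629-/- mouse 1 (log2 fold change 1.05, limma adjusted p = 0.0113) or Gm31629-/- mouse 3 (1.11, adjusted p = 0.00866). With a pseudocount of 0.1 in place of 1 the log2 fold change was 2.60 (adjusted p = 0.00291), since adding 1 FPKM compresses the change of a gene near 1 FPKM.

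The pair of alternative activation genes differed in direction. Chil3 (ENSMUSG00000040809, chromosome 3, 106147554 to 106167564) encodes the secreted chitinase-like protein Ym1, and its FPKM was 23.2, 18.2, and 4.37 in Gm31629-/- mice and 0.232, 0.510, and 0.587 in WT mice. Every Gm31629-/- mouse was above every WT mouse, and the log2 fold change was 3.24 ± 0.53 (SE), with a limma adjusted p of 0.00339. Of its 50-base stretches, 26.9% occur in other genes, mostly in the neighboring family member Chil4, so reads of this family are uncertain. Arg1 (ENSMUSG00000019987, chromosome 10, 24915221 to 24927484) encodes arginase 1, which turns arginine into ornithine and urea. Its FPKM was 1.95, 4.16, and 0.684 in Gm31629-/- mice and 3.40, 6.73, and 5.09 in WT mice. The means were 2.27 ± 1.76 and 5.07 ± 1.67 FPKM (SD, n = 3 each), while Gm31629-/- mouse 2 lay within the WT range. The log2 fold change of −1.0 (95% confidence interval −1.98 to −0.03, limma adjusted p = 0.0867) did not pass. Arg1 was called lower without Gm31629-/- mouse 2 (log2 fold change −1.41, adjusted p = 0.0202) and with the median ratio (−1.20, adjusted p = 0.0385). No other setting of this fit gave Arg1 an adjusted p under 0.05, and its log2 fold change lay between −1.41 and −0.60 in the fits that left out 1 mouse.

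**Figure D2:**
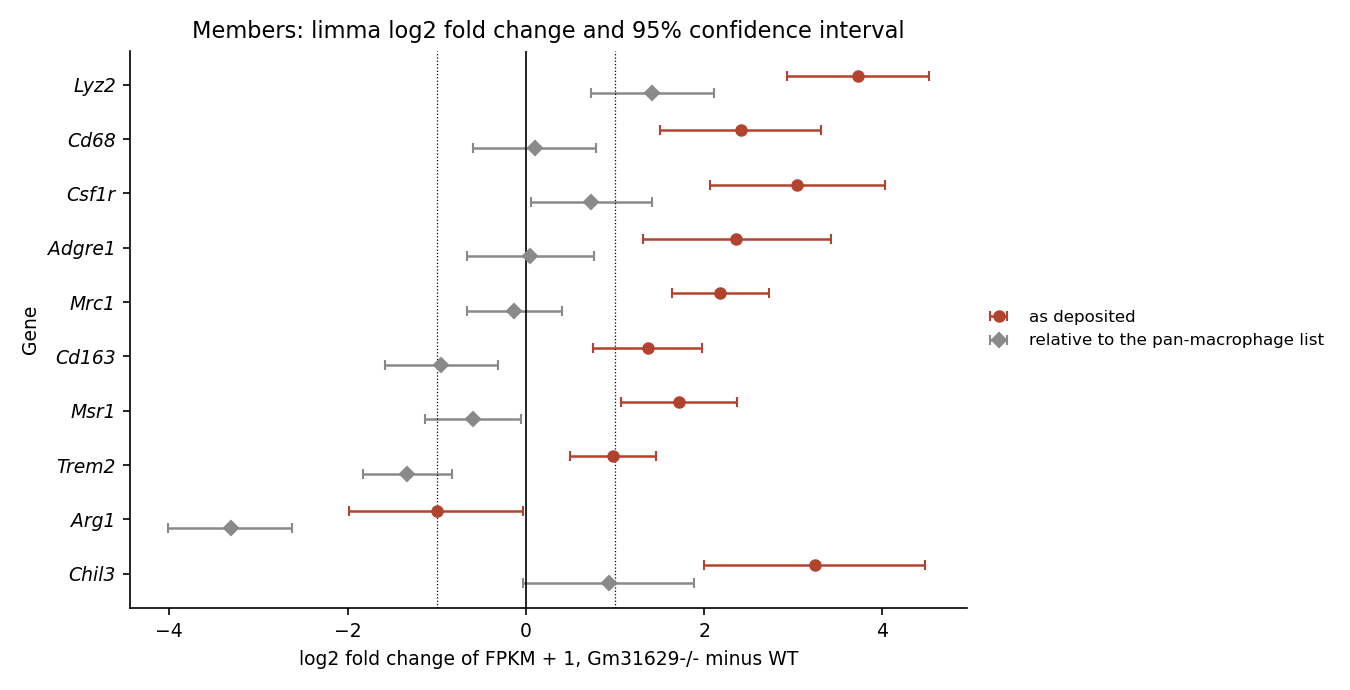
Log2 fold change of FPKM + 1 (horizontal axis, Gm31629-/- minus WT) of each gene with its 95% confidence interval from limma, as deposited (red circles) and relative to 12 other macrophage genes (gray diamonds), with dotted lines at −1 and 1. As deposited, the values run from −1.0 for Arg1 to 3.73 for Lyz2, and relative to the other macrophage genes Arg1 lies at −3.31 and Lyz2 at 1.42.

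Since most of these genes rose together, the 250 bases before the RefSeq start of each gene (GRCm38.p6) were searched for the core of the motif of PU.1, the lineage factor of macrophages encoded by Spi1. Windows were at hand for 6 of the 10 genes, namely Lyz2, Cd68, Mrc1, Cd163, Trem2, and Chil3. The letters GAGGAA, on either strand, occurred in 3 of these 6 windows and in 23.3% of 32851 windows of the same length. They occurred once in Cd68, 3 times in Mrc1, and once in Trem2, with the first base of the match at −225 from the start of Cd68, at −180, −167, and −35 from that of Mrc1, and at −40 from that of Trem2. The palindrome of STAT factors (TTC and GAA, 4 bases apart), which carry the signal of IL-4 and IL-13, occurred in 0 of the 6 windows and in 5.85% of all windows. A match describes the letters only. The 3 windows with a match are printed 5′ to 3′ on the strand of the gene, with the match in capitals, which reads TTCCTC where it lies on the other strand. They are chr11:69666171-69666420 on the minus strand for Cd68, chr2:14229164-14229413 on the plus strand for Mrc1, and chr17:48346151-48346400 on the plus strand for Trem2.
Cd68: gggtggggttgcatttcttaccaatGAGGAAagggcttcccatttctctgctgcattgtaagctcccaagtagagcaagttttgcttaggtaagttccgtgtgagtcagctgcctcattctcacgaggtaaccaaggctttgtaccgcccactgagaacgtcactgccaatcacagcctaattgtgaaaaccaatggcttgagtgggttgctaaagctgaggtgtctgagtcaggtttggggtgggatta
Mrc1: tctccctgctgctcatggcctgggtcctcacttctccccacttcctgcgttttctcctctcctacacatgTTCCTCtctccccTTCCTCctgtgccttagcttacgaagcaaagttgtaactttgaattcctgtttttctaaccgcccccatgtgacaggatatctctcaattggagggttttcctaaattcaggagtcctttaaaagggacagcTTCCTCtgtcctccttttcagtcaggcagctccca
Trem2: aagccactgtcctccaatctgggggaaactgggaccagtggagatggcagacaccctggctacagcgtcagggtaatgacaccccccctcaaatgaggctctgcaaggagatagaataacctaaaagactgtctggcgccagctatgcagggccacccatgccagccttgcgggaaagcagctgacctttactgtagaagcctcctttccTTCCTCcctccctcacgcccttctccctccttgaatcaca

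FPKM is scaled by gene length, so levels can be ordered between genes. In Gm31629-/- mice, the geometric means ran from Lyz2 (374 FPKM) through Cd68 (26.1), Csf1r (22.8), Chil3 (12.3), Adgre1 (6.19), Mrc1 (4.64), Msr1 (2.54), Arg1 (1.77), and Cd163 (1.57) to Trem2 (1.14). Only Lyz2 was apart from its neighbor in this order, and every later neighboring pair overlapped between mice. In WT mice, Lyz2 (27.3 FPKM) was followed by Arg1 (4.88), Cd68 (4.10), Csf1r (1.89), Adgre1 (0.434), Chil3 (0.411), Mrc1 (0.232), Trem2 (0.105), Msr1 (0.0893), and Cd163 (0.025). Here the values of Arg1 and Cd68 overlapped, as did those of Adgre1 and Chil3, of Chil3 and Mrc1, and of Trem2 and Msr1, and the other neighbors were apart. Arg1 stood at rank 2 in WT mice and at rank 8 in Gm31629-/- mice, the largest shift of any of the 10. Arg1 made up 10.5%, 13.4%, and 13.3% of the summed FPKM of the 10 genes in WT mice 1 to 3 and 0.629%, 0.542%, and 0.168% in Gm31629-/- mice 1 to 3, so the groups did not overlap in this share. Lyz2 made up 67.5% to 70.7% in WT mice and 78.4% to 85.1% in Gm31629-/- mice. The sum was thus mostly Lyz2, whose rise lowers the share of any gene that did not rise. The FPKM of Arg1 itself overlapped between the groups, so its share overstates its own change.

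**Figure D3:**
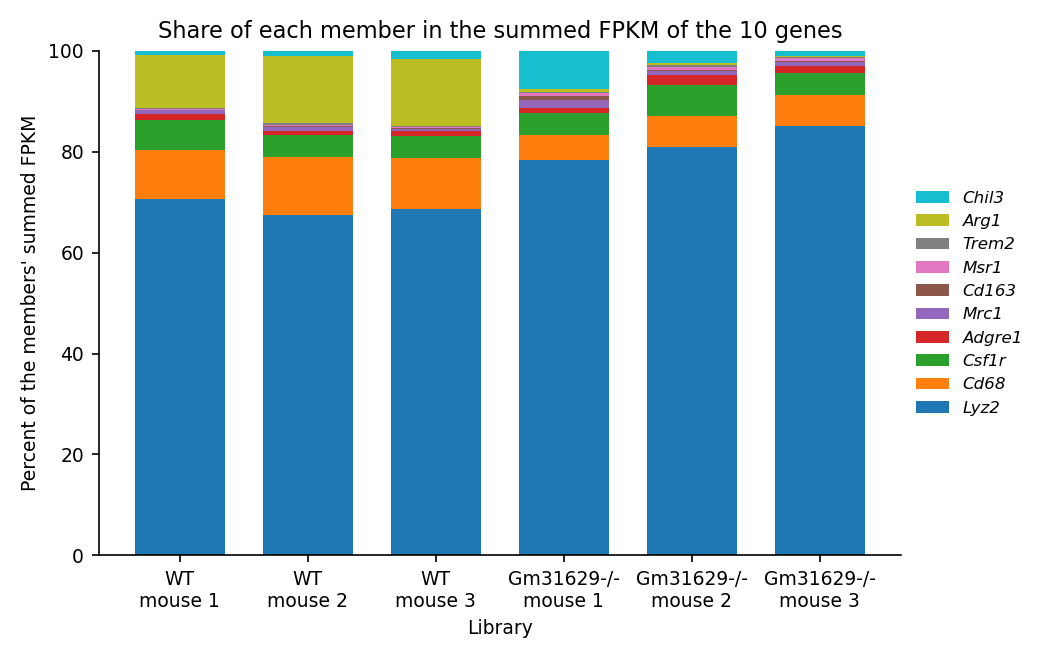
Share of each gene in the summed FPKM of the 10 genes (stacked bars, percent) in each library. The Arg1 segment takes up 10.5% to 13.4% of the WT bars and 0.168% to 0.629% of the Gm31629-/- bars, and the Chil3 segment is widest in Gm31629-/- mouse 1, at 7.49%. Shares depend on the rise of the other genes, mostly Lyz2, and the FPKM of Arg1 itself overlapped between the groups.

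Gm31629-/- mice did not vary together in all 10 genes. Lyz2, Cd68, Csf1r, Adgre1, and Msr1 were highest in mouse 2, then mouse 3, then mouse 1. Mrc1, Trem2, and Arg1 were highest in mouse 2 and lowest in mouse 3. Cd163 and Chil3 were highest in mouse 1 and lowest in mouse 3, where Chil3 was 4.37 FPKM against 23.2 FPKM in mouse 1. Among the Gm31629-/- mice, the highest value was 2.0 times the lowest for Mrc1 and 6.08 times for Arg1, the narrowest and the widest of the 10. In WT mice, mouse 2 was highest for 9 of the 10 genes, all but Chil3, and the highest over the lowest ran from 1.07 for Adgre1 to 4.11 for Cd163. Other cell types differed between these mice as well, and their part in the spread was not tested. The summed FPKM of fibroblast markers followed the order of Lyz2 in Gm31629-/- mice, with 160, 475, and 294 in mice 1 to 3, as did that of endothelium markers (40.7, 82.8, and 57.8). That of smooth muscle markers had the order of Cd163 and Chil3, with 2620, 1820, and 1600. Dendritic cell markers also had the order of Lyz2, and T cell markers that of Cd163 and Chil3. Enteric neuron and glia markers (141, 204, and 57.7) had the order of Mrc1, Trem2, and Arg1. Adipocyte markers (57.6, 137, and 57.6) were highest in mouse 2, and eosinophil markers were highest in mouse 1 and lowest in mouse 2. The sums of neutrophil markers (543, 774, and 1050), epithelium markers, and B and plasma cell markers were highest in mouse 3 and followed none of these orders. Single neutrophil markers differed from their sum. The log2 fold change of Ly6g, the most abundant, was smallest without mouse 3 (2.24). Those of S100a8 (3.55), S100a9 (3.76), Retnlg, Ngp, and Camp were smallest without mouse 1, in which these genes were thus highest. Those of Csf3r, Cxcr2, Mmp9, and Ltf were smallest without mouse 2. With 3 mice, an order is easily shared.

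To ask whether members differed beyond the common level of macrophage genes, each library was shifted on the log2(FPKM + 1) scale so that the mean of 12 other macrophage genes was equal in all 6 mice. This mean had been 4.70, 5.37, and 4.62 in Gm31629-/- mice and 2.58, 2.64, and 2.55 in WT mice. After the shift, Lyz2 was higher (log2 difference 1.42, limma adjusted p = 0.00107) and Arg1 lower (−3.31, limma adjusted p = 5.90e-06), and Trem2 was called lower (−1.33, limma adjusted p = 0.00015). As background, 1.33% of all tested genes were called higher and 86.0% lower, with a median of −2.16, so a call of lower says little by itself. The shift also drags down genes near 0 FPKM. With a pseudocount of 0.1, Trem2 was at −0.17 (limma adjusted p = 0.721), and Mrc1 and Msr1 went from −0.13 and −0.59 to 1.04 and 1.01. Arg1 was called lower in 11 of 11 alternatives, between −4.31 and −2.92, but each of these also called most tested genes lower. Lyz2 was called higher in 10 of 11, of which 6 were fits that left out 1 mouse. The exception was voom at 0.92 (limma adjusted p = 0.00776). Lyz2 only just passed the fold threshold with the pseudocount of 0.1 (1.00, limma adjusted p = 0.0119). The same held without Mertk and Ctss in the reference (1.04, adjusted p = 0.0186). Cd68 (0.10, limma adjusted p = 0.77) and Adgre1 (0.05, adjusted p = 0.883) did not pass, with 95% confidence intervals of −0.59 to 0.79 and −0.66 to 0.76. Csf1r was at 0.73 and Chil3 at 0.93, below the fold threshold, and Chil3 passed it without Gm31629-/- mouse 3 (1.46, limma adjusted p = 0.00371) and with the pseudocount of 0.1 (1.81, adjusted p = 0.00913). Leaving the C1q genes out of the reference called Csf1r (1.13, limma adjusted p = 0.0055) and Chil3 (1.32, adjusted p = 0.0179) higher and ended the call of Trem2 (−0.94). Cd163, at −0.95, was called lower without Gm31629-/- mouse 1 (−1.25, limma adjusted p = 0.000127) or without Mertk and Ctss in the reference (−1.33, adjusted p = 0.00218) and was at 0.94 with the pseudocount of 0.1.

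The 12 macrophage genes used as reference moved with the members. Of these, 11 were called higher and none lower, with a median log2 fold change of 2.30. The complement genes C1qb and C1qa, whose proteins start the classical pathway, rose by 3.67 and 3.49 and Mpeg1, which encodes the pore-forming protein perforin-2, by 3.38. C1qb was at 121, 220, and 103 FPKM in Gm31629-/- mice and 11.9, 10.4, and 8.31 FPKM in WT mice, a difference of similar size to that of Lyz2. Mertk, which encodes a receptor for dying cells, was the one gene not called, with 14.9, 5.45, and 7.56 FPKM in Gm31629-/- mice and 9.81, 14.7, and 12.0 FPKM in WT mice (log2 fold change −0.45, limma adjusted p = 0.308, and 0.12 after scaling to epithelium markers).

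Of 13 genes of resident macrophages, 8 were tested, 5 were called higher, and none lower, with a median log2 fold change of 1.29 over those tested. Some passed the filter only through their level in Gm31629-/- mice, and with no filter 4 of the 13 were called and the median was 0.35. The largest rises were in the hyaluronan receptor gene Lyve1 (2.88), the scavenger receptor gene Stab1 (2.60), and the chemokine gene Pf4 (2.40). Which cells of the tissue carried these transcripts was not tested, and markers of other cell types, including endothelium, were called higher as well. Lyve1 was at 25.7, 11, and 6.17 FPKM in Gm31629-/- mice and 0.574, 1.27, and 0.620 FPKM in WT mice, so its order among the Gm31629-/- mice was that of Cd163 and Chil3. Gas6 (−0.49, limma adjusted p = 0.0493) and Cbr2 (−0.37, adjusted p = 0.153) had the most negative values and were not called. Folr2, Timd4, Vsig4, Cd209f, and Cd209g were under the filter.

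Among 15 inflammatory monocyte and macrophage genes, 13 were tested, 9 were called higher, and none lower, with a median of 1.68. With a mean of at least 5 FPKM, 3 of 7 were called and the median was 0.62. Thbs1 (3.12), the acute phase gene Saa3 (2.83), and the cytokine gene Il1b (2.77) rose most. Nos2, which encodes the nitric oxide synthase used to mark classical activation and shares its substrate arginine with Arg1, was at 30.5, 280, and 37.0 FPKM in Gm31629-/- mice and 93.4, 73.5, and 73.8 FPKM in WT mice. It was thus below the WT mice in 2 Gm31629-/- mice and far above them in mouse 2, and the groups overlapped (log2 fold change −0.22, limma adjusted p = 0.837, and 0.40 after scaling to epithelium markers). Without Gm31629-/- mouse 2 it was called lower (−1.22, limma adjusted p = 0.0036), as was Arg1. Plac8 was at −0.03 (limma adjusted p = 0.941), and Il12b and Il23a were under the filter.

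The 12 further genes of alternative activation were mixed, with 6 called higher, 1 called lower, and a median of 0.93. With a mean of at least 5 FPKM, 5 were tested, 1 was called in each direction, and the median was −0.32. The largest rises were in the IL-10 receptor gene Il10ra (2.47), the lectin gene Clec10a (1.88), and Retnla (1.86), which encodes the secreted protein RELMα. Retnla, like Chil3, was near 0 in WT mice, at 0, 0, and 0.178 FPKM, and was 3.36, 3.26, and 2.0 FPKM in Gm31629-/- mice. Pparg, which encodes a nuclear receptor that is also abundant in colonic epithelium, fell by 2.24 (limma adjusted p = 0.000657), from 61.4, 66.4, and 65.1 FPKM in WT mice to 19.0, 10.7, and 10.3 FPKM in Gm31629-/- mice. Stat6, the factor activated by IL-4 and IL-13, was at −0.51 (limma adjusted p = 0.0303) and below the fold threshold. Of 14 genes associated with Trem2 and lipid handling, 8 were called higher and 1 lower, with a median of 1.17. With a mean of at least 5 FPKM, 10 were tested, 4 were called higher and 1 lower, and the median was 0.75. The apolipoprotein gene Apoe (3.79), the fatty acid receptor gene Cd36 (3.37), and Gpnmb (2.37) rose most, and which cells carried these transcripts was not tested. Apoe was at 520, 836, and 569 FPKM in Gm31629-/- mice and 37.0, 52.6, and 44.9 FPKM in WT mice. It was above Lyz2 in every mouse. Lgals3, which encodes galectin-3 and is expressed in epithelium as well as in macrophages, fell by 1.53 (limma adjusted p = 0.00053) but was not called after scaling to epithelium markers (−0.91), and Lipa was at −0.26 (adjusted p = 0.387).

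**Figure D4:**
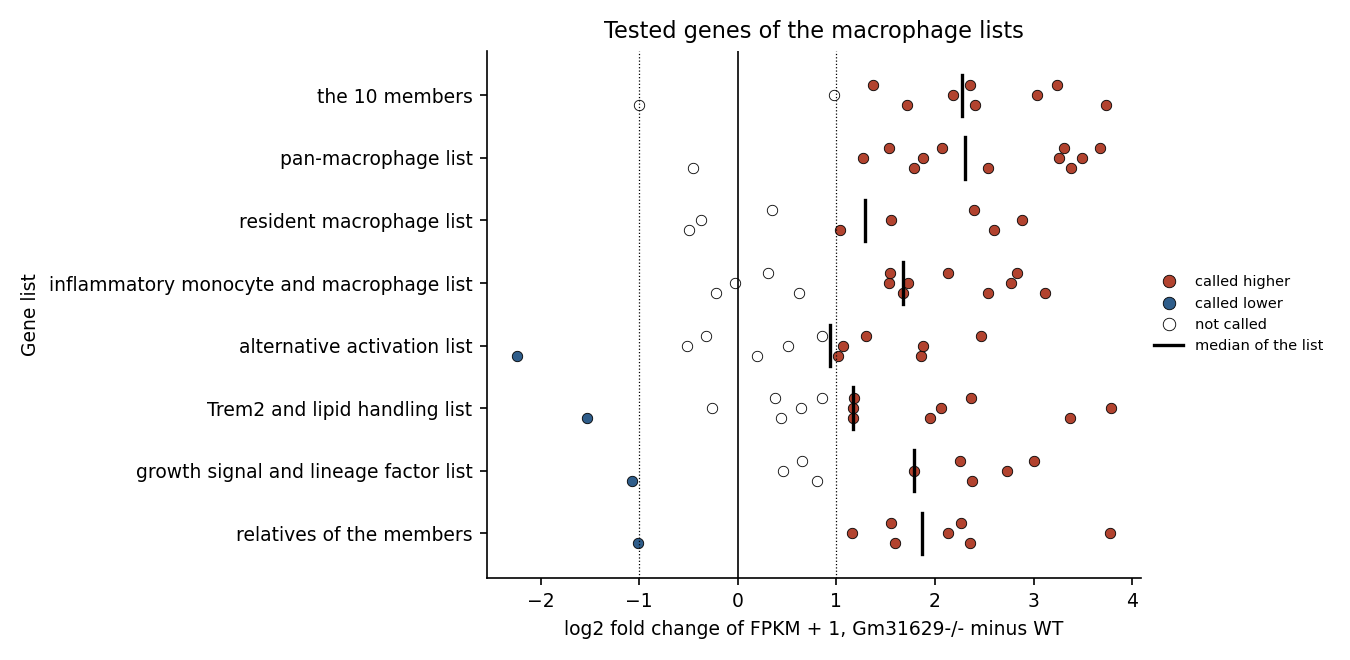
Log2 fold change of FPKM + 1 (horizontal axis, Gm31629-/- minus WT) of each tested gene of the 10 members and of 7 further lists of macrophage genes, with genes called higher in red, called lower in blue, and not called in white, and the list median as a black bar. The medians run from 0.93 for the alternative activation list to 2.30 for the pan-macrophage list, beside 2.27 for the 10 members.

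Of 11 ligands, receptors, and lineage factors of macrophages, 9 were tested, 5 were called higher, and 1 lower, with a median of 1.79 that was 0.80 with no filter. Both ligands of the Csf1r receptor were called higher. Csf1 was at 5.25, 12.2, and 8.69 FPKM in Gm31629-/- mice and 1.41, 0.778, and 0.735 FPKM in WT mice (log2 fold change 2.25, limma adjusted p = 0.00152). Il34 was at 10.4, 20.8, and 24.3 FPKM in Gm31629-/- mice and 4.28, 5.41, and 3.50 FPKM in WT mice (1.79, limma adjusted p = 0.00436). Neither ligand overlapped between the groups. The PU.1 gene Spi1 rose by 2.38 (limma adjusted p = 0.00265) and Cebpb, which encodes another myeloid transcription factor, by 3.00 (adjusted p = 0.00365), and the receptor gene Csf2rb rose by 2.73. Irf8, which encodes a factor of monocyte and dendritic cell development, fell from 73.2, 30.1, and 51.6 FPKM in WT mice to 29.9, 21.7, and 17.9 FPKM in Gm31629-/- mice (log2 fold change −1.07, limma adjusted p = 0.0369). That call was lost in 4 of the 6 fits that left out 1 mouse, namely those without Gm31629-/- mouse 2 (adjusted p = 0.0805) or mouse 3 (0.114) and without WT mouse 1 (0.105) or mouse 3 (0.113), and after scaling to epithelium markers (−0.46). Csf2ra (0.46) and the IL-13 receptor gene Il13ra1 (0.80) were not called. After scaling to epithelium markers both were (1.05 and 1.41), and Il13ra1 also was without WT mouse 1 (1.10, limma adjusted p = 0.0196). Il4, at 1.15, 1.10, and 0.532 FPKM in Gm31629-/- mice and 0.132, 0.407, and 0.13 FPKM in WT mice, was below the fold threshold (0.65, limma adjusted p = 0.0318), which it passed by voom (2.07). Il13 was at 0 in 5 of the 6 mice and Csf2 in 3, and both were under the filter.

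Relatives of the members by sequence or family were mostly higher too. Of 8 tested relatives, 7 were called higher and 1 lower. Some passed the filter only through their level in Gm31629-/- mice, such as Lyz1. With a mean of at least 5 FPKM, only 2 were tested, and both were called higher. With no filter, 7 of 10 were called higher and 1 lower. Lyz1 (2.36), Chil1 (3.78), the mannose receptor relative Mrc2 (2.26), the scavenger receptors Marco (1.6) and Scara5 (2.13), Trem1 (1.55), and Adgre5 (1.16) rose, all with a limma adjusted p of at most 0.0138. Adgre5 was not called without Gm31629-/- mouse 2 (0.95), WT mouse 1 (limma adjusted p = 0.0515), or WT mouse 3 (0.0551), nor with the median ratio (0.93). Arg2, the mitochondrial arginase gene, was the one called lower. Its FPKM was 3.01, 3.64, and 2.06 in Gm31629-/- mice and 4.88, 7.62, and 8.12 in WT mice, so that unlike Arg1 its groups were apart (log2 fold change −1.01, limma adjusted p = 0.0141). The call was lost without Gm31629-/- mouse 3 (−0.84), WT mouse 2 (−0.93), or WT mouse 3 (−0.89) and after scaling to epithelium markers (−0.51). Cd5l and Adgre4 were under the filter, with Adgre4 at 0.342, 1.04, and 0.327 FPKM in Gm31629-/- mice and at 0 in WT mice 2 and 3. Chil4 was not analysed here.

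The genes whose profile was most like that of a member were found by the root mean square difference of log2(FPKM + 1), centered on its mean, over the 6 libraries. Nearest to Lyz2 were Fstl1, Axl, and Gm13889 (0.117 to 0.156). Those of Cd68 were Tubb6, Dab2, and Cd93 (0.124 to 0.134), those of Csf1r were Csf3, Rasl11a, and Fcgr2b (0.102 to 0.133), and those of Adgre1 were Gm47791, Clec4a3, and Spi1 (0.101 to 0.141). Mrc1 was closest to Mtss1l, Qk, and Cadm3 (0.053 to 0.079), Cd163 to Kcnd3, Zfp948, and Tmod2 (0.059 to 0.069), and Msr1 to Dlc1, Slco3a1, and Cd86 (0.023 to 0.064). For Trem2 they were Kif3c, Fam78b, and Susd5 (0.036 to 0.046), and for Chil3 Grp, Pirt, and Nap1l5 (0.141 to 0.193). Arg1 had no close match, with Mogat2, Tlr2, and its relative Arg2 at 0.287 to 0.319. Pirt was at 0 in WT mice 1 and 2 and at 11.5, 11.4, and 2.31 FPKM in Gm31629-/- mice, and was thus lowest in Gm31629-/- mouse 3, like Chil3.

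Markers of other cell types moved in the same comparison. Of 12 smooth muscle markers, 11 were called higher and none lower, with a summed FPKM of 1600 to 2620 in Gm31629-/- mice and 28.3 to 54.3 in WT mice. The most abundant, Acta2, was at 641, 579, and 453 FPKM in Gm31629-/- mice and 5.01, 14.2, and 5.53 FPKM in WT mice, a larger ratio of means (67.6) than that of Lyz2 (14.6). Of 12 enteric neuron and glia markers, 11 were called higher, with sums of 57.7 to 204 against 2.85 to 5.43, Prph being the most abundant, and Elavl4 was at 0 in all WT mice. All 6 fibroblast markers, with Col3a1 the most abundant, were called higher (160 to 475 against 16.3 to 33.4), as were all 7 tested endothelium markers, with Pecam1 the most abundant (40.7 to 82.8 against 2.47 to 6.06), and 4 of 5 tested adipocyte markers (57.6 to 137 against 10.2 to 20.6). Without WT mouse 1 only 2 adipocyte markers were called, and the most abundant, Cidec (1.07), lost its call in 4 of the 6 fits that left out 1 mouse. Among leukocytes, 9 of 10 neutrophil markers were called higher (543 to 1050 against 76.0 to 132), and 6 without WT mouse 3. Ly6g was the most abundant of them, and Ngp and Camp were at 0 in all WT mice. Of 7 B and plasma cell markers, 6 were called higher (232 to 421 against 14.6 to 21.5), with Jchain the most abundant. Only 5 of them were called without Gm31629-/- mouse 1 or 3 or without any 1 WT mouse. Of 8 dendritic cell markers (10.2 to 23.2 against 1.31 to 1.81), only 2 were tested. Both were called higher, with Ccr7 the most abundant, and 1 was called without Gm31629-/- mouse 2. With no filter, 2 of the 8 were called and the median was 0.71. Of 6 T cell markers (11.8 to 21.9 against 5.73 to 9.05), Cd4 was called higher (1.70), the most abundant, Lck (0.51), was not, and 3 were called without Gm31629-/- mouse 3. Of 4 eosinophil markers (1.85 to 2.67 against 1.04 to 1.2), only 2 were tested. Prg2 was called higher (1.04) but not without WT mouse 2 (0.96), and the more abundant Siglecf (−0.09) was not called. Of 15 epithelium markers, none was called higher and 4 were called lower (2 without Gm31629-/- mouse 1), with sums of 8090 to 9590 in Gm31629-/- mice and 13000 to 14200 in WT mice. Krt8 was the most abundant of them, at 1650, 2140, and 2330 FPKM in Gm31629-/- mice and 4200, 4330, and 4060 FPKM in WT mice. Its call was lost without Gm31629-/- mouse 1 (log2 fold change −0.91). Scaling to the epithelium markers put Krt8 at −0.43, but Krt8 is itself among these markers, so that scaling cannot test its call. The share of the tissue layers sampled in each mouse is not known. The part of these cell types in the levels of the 10 genes and of the other macrophage lists was not tested. The summed FPKM of the 10 members was 310 to 767 in Gm31629-/- mice and 32.4 to 50.1 in WT mice.

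**Figure D5:**
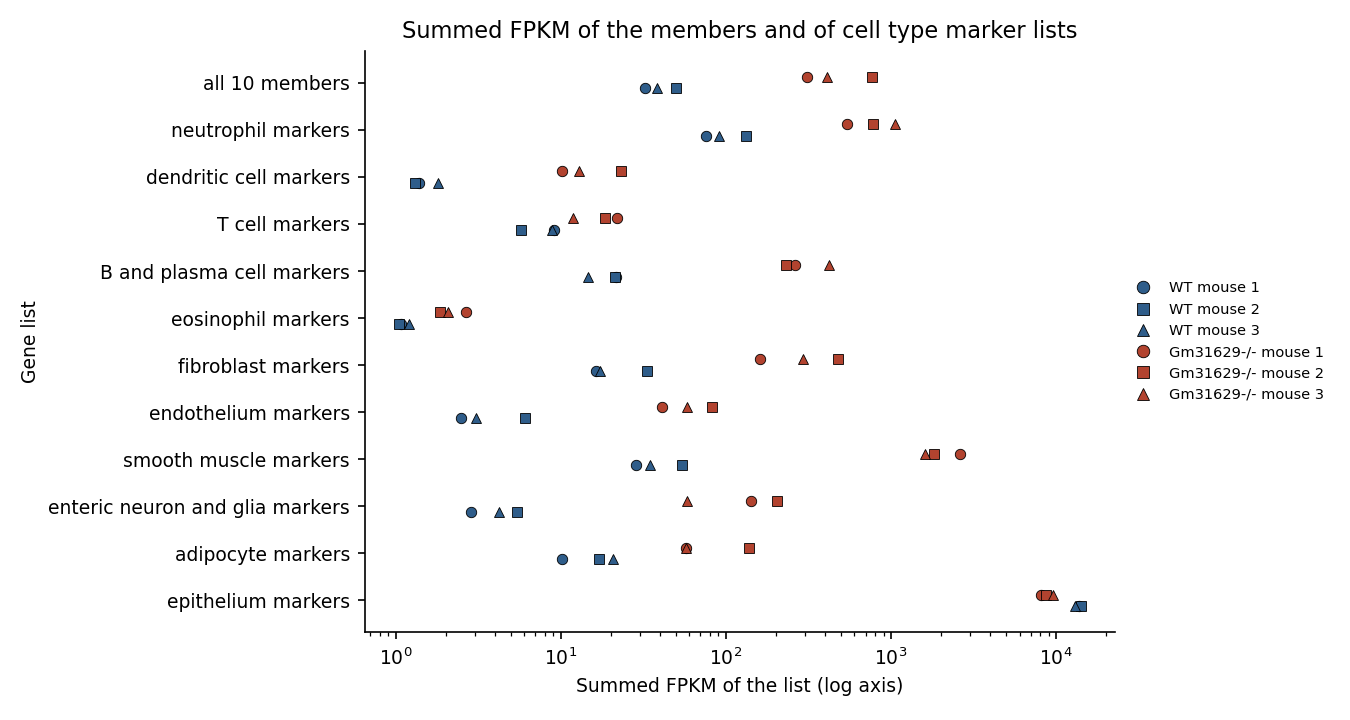
Summed FPKM (log axis) of the 10 members and of 11 cell type marker lists in each mouse, where blue symbols are WT mice, red symbols are Gm31629-/- mice, and the symbol shape gives the mouse number. Red symbols lie to the right of blue ones for every list except the epithelium markers, for which the sums are 8090 to 9590 in Gm31629-/- mice and 13000 to 14200 in WT mice.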

How the data were processed

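Bulk RNA-Seq had been carried out on colon of 3 Gm31629-/- and 3 WT mice. FPKM values were deposited by the authors with a column per mouse, although the methods speak of pooled RNA, and the columns were treated as separate mice, so p-values measure the spread between these samples. The submitters' processing notes name HISAT2 2.1.0, HTSeq 0.6.0, and GRCm38. Replicate numbers did not pair the samples (correlations of same-numbered mice 0.036, −0.108, and 0.014).

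Symbols, positions, and exon lengths came from GENCODE M21 (GRCm38) for 27488 genes. Fragments were recovered from FPKM with these lengths, and 96.3% to 97.2% of values up to 20 fragments were within 0.1 of whole. Genes with a mean of at least 0.5 FPKM were tested with limma 3.58.1 (R 4.3.3; lmFit, eBayes with trend) on log2(FPKM + 1), which understates the change of low genes. The study used DEGseq, which needs counts and was not repeated. Scripts were tested on simulated data. Intervals are 95% confidence intervals.

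The members and lists were chosen with earlier results of these data known. All members, growth signals, and relatives are named, and of other macrophage lists the 3 that rose most, the 2 most negative, and those under the filter, of marker lists the most abundant gene, and 3 nearest genes per member. Genes named beyond this rule (Elavl4, Cd4, Prg2, and the neutrophil markers other than Ly6g) were chosen after their values were seen.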

Additional observations from a re-analysis of the deposited data

How the results depend on the processing

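Leaving out each mouse in turn kept 8 or 9 of the 10 genes called, and 2798 to 3572 of all genes against 3384. With a mean FPKM of at least 5, only 4 of the 10 genes were tested and all 4 were called (1449 of 7242 genes overall). The treat test of limma, which asks for a change beyond 1 on the log2 scale, kept 4 of the 10, namely Lyz2, Csf1r, Mrc1, and Chil3, and 912 of all genes, and dropping the fold threshold gave 9 of the 10 and 6376 of all genes. With the replicate number as a block, 8 of the 10 genes and 3357 of all genes were called, and no call of a member changed. Relative to the 12 other macrophage genes, 5 of the 10 genes were called with a pseudocount of 0.1 against 3. The 5 were Lyz2, Mrc1, Msr1, and Chil3, called higher, and Arg1, called lower. Of all 14657 tested genes, 597 were called higher and 11752 lower with that pseudocount, against 195 and 12598 without it. In that comparison Cd68 (0.10) was at −0.13 with the pseudocount of 0.1, −0.28 without Mertk and Ctss in the reference, and −0.19 by voom, and ran from −0.06 to 0.36 with mice left out. Adgre1 (0.05) was at −0.33 without Mertk and Ctss and ran from −0.26 to 0.38. Mrc1 (−0.13) was at 1.04 with the pseudocount of 0.1, 0.27 without the C1q genes in the reference, and 1.44 by voom. With the pseudocount of 0.1 and by voom, Cd163 was at 0.94 and 2.81 and Msr1 at 1.01 and 1.91, and Trem2 was at 0.52 by voom. The alternatives with voom or without Mertk and Ctss in this comparison were chosen after seeing the data. For these reversals the cause was not tested, beyond the fact that the pseudocount weighs most on genes near 0 FPKM. Depth limits Cd163, Msr1, Trem2, and Chil3 in WT mice, at 1 to 18 fragments per library. A group of 3 mice is too small to test for outlying mice.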
